A study of Drosophila melanogaster with 28 samples.

Results

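The genes described here had Pol II occupancy in both Domino knockdown (DomKD) libraries at or below 0.5 times that in both control (Ctrl) libraries. Occupancy is the count of Rpb3 ChIP-seq reads over the span of a gene, introns included, given as CPM, the count scaled to a fixed total over all gene spans of that library. The members were chosen by these CPM values: a gene was a member when its mean count over the 4 libraries was at least 100 and its higher DomKD CPM was at most 0.5 times its lower Ctrl CPM. The rule found 158 members among 10703 genes with that mean count, or 1.48%, out of 16864 genes in all. The mirrored rule, with the lower DomKD CPM at least 2 times the higher Ctrl CPM, found 3 genes (CG17010, bru2 and lncRNA:CR46008), or 0.028%. Because the rule used the DomKD against Ctrl contrast, every value of that contrast given for the members is a description and carries no test.

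Embryos of Drosophila melanogaster were collected at stage 5, the time of zygotic genome activation (ZGA), and Pol II was precipitated with an antibody against its core subunit Rpb3. Ctrl embryos (genotype label t180) came from mothers of a TRiP line control. DomKD embryos (genotype label t216) came from mothers that carried a TRiP Domino shRNA. The shRNA was driven by mat-alpha-Gal4 in the female germline, so that the eggs were depleted of maternal Domino transcripts while the embryo kept its own dom gene. There were 2 biological replicates per group, each of many pooled embryos, so that fewer nuclei with Pol II on a gene and less Pol II per nucleus cannot be told apart.

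Domino is a SWR1-type ATPase that exchanges histone H2A for the variant H2A.Z, called H2Av in flies, and it belongs to the Tip60 complex. At ZGA the embryo begins to make its own transcripts. Some of its first genes are developmental genes opened by the pioneer factor Zelda, and many others are housekeeping genes with broad promoters, which carry H2A.Z at their first nucleosomes. Rpb3 reads over a gene come from paused and elongating Pol II together, and reads from chromatin that was not enriched form a background that grows with span length.

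The 4 libraries held between 8326467 and 12022743 reads over the gene spans, each gene represented by 1 transcript. The background, taken as the most frequent read density over genes longer than 2000 nt, was 4.66 and 4.23 CPM per kb in Ctrl replicates 1 and 2. It was 4.41 CPM per kb in DomKD replicate 1 and 7.01 CPM per kb in DomKD replicate 2, which thus stood apart from the other libraries. With DomKD replicate 2 left out the rule would have taken 308 genes, and with DomKD replicate 1 left out 456 genes, all 158 members among them in both cases. With Ctrl replicate 1 left out it would have taken 247 genes, 147 of them members. The gene dom itself had 630 and 668 CPM in Ctrl and 536 and 404 CPM in DomKD, which is no check of the RNAi, since the RNAi acts on the maternal transcript. Of 64 early zygotic genes, 53 had a Ctrl density of at least 2 times background. The marker sets of other sources had 0 of 6 muscle, 1 of 6 neuron, 0 of 8 cuticle and gut and 1 of 6 blood and fat body genes at that density. Maternal germ line markers had 6 of 11, so this check did not set the embryos apart from that source.

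In the members with the lowest ratios, the higher DomKD value was below 0.4 times the lower Ctrl value. CG42846, a gene of unassigned function, had 61.1 and 68.7 CPM in Ctrl replicates 1 and 2 and 18.6 and 12.2 CPM in DomKD replicates 1 and 2. Its ratio of the higher DomKD to the lower Ctrl value was 0.305, the lowest of all members, and its log2 fold change was −2.0 (model SE 0.24). Sem1, a small subunit of the proteasome lid, had 31.4 and 28.7 CPM in Ctrl and 6.91 and 9.63 CPM in DomKD. mtDNA-helicase, the fly Twinkle homologue that unwinds mitochondrial DNA, had 79.7 and 84.2 CPM in Ctrl and 27 and 24 CPM in DomKD. In these genes the groups were far apart, as the rule and the ranking by ratio required. RpS2, a protein of the small ribosomal subunit, had 73.8 and 81.2 CPM in Ctrl and 27 and 20 CPM in DomKD. CG14949 had 46.9 and 43.8 CPM in Ctrl and 14 and 11.4 CPM in DomKD. pasi1 had 42.1 and 45.2 CPM in Ctrl and 14.2 and 15 CPM in DomKD. Whichever DomKD library was the lower differed from gene to gene, and 104 of the 158 members were lower in replicate 2 than in replicate 1.

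The other genes with ratios among the lowest were mostly small genes without an assigned role. Bka, on the list of rRNA and tRNA processing, had 41.2 and 41.6 CPM in Ctrl and 15.2 and 9.63 CPM in DomKD. DCTN6-p27, a subunit of the dynactin complex, had 26.9 and 24.5 CPM in Ctrl and 9.12 and 8.98 CPM in DomKD. asRNA:CR44599, an antisense RNA, had 14.6 and 18.1 CPM in Ctrl and 5.38 and 5.3 CPM in DomKD. These were short spans of 818, 775 and 582 nt. CG34298 had 16.6 and 16.7 CPM in Ctrl and 6.14 and 5.3 CPM in DomKD. CG10470 had 28.9 and 28.7 CPM in Ctrl and 10.5 and 10.8 CPM in DomKD. CG17202 had 38 and 38.9 CPM in Ctrl and 14.6 and 12.4 CPM in DomKD. In each of these 6 genes the libraries of a group lay nearer to each other than the groups did, which the ranking by ratio favoured.

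**Figure D1:**
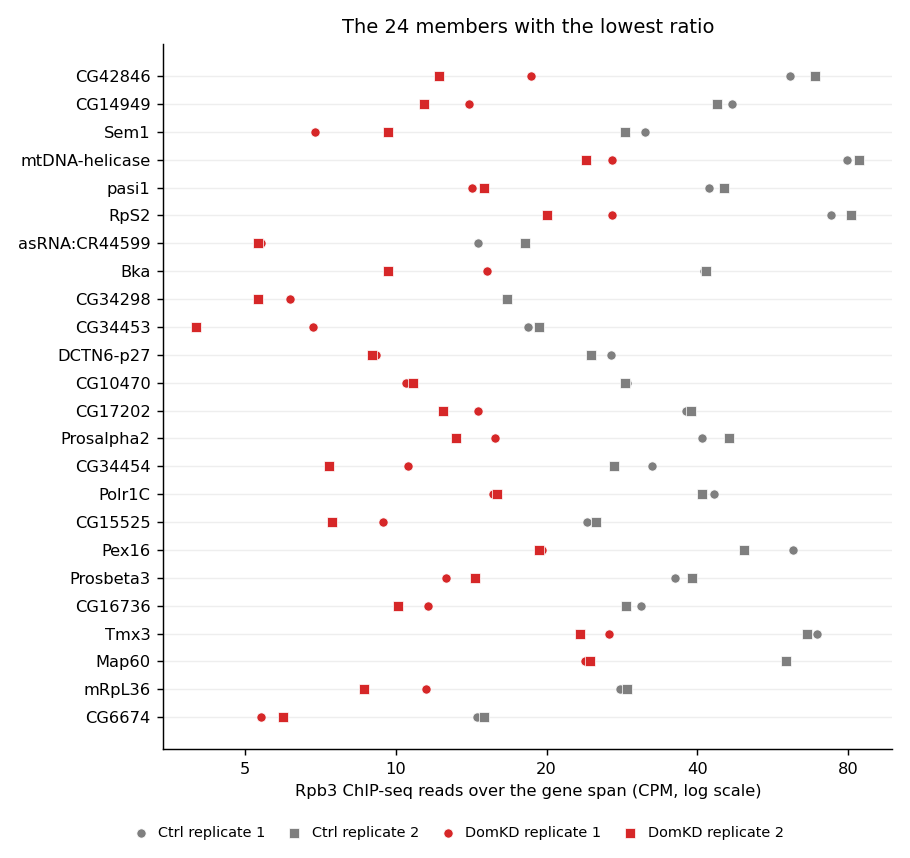
Rpb3 ChIP-seq reads over the gene span in CPM (log scale) for the 24 members with the lowest ratio, 1 row per gene, with grey for Ctrl, red for DomKD, circles for replicate 1 and squares for replicate 2. In CG42846, at the top, the Ctrl points lie at 61.1 and 68.7 CPM and the DomKD points at 18.6 and 12.2 CPM. In each of the 24 rows the gap between the groups is wider than the gap within either group, which the ranking by ratio favours.

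The promoters of 4 members among those with the lowest ratios are shown because each holds an exact copy of a motif of broad housekeeping promoters. They run from 250 nt before to 50 nt after the annotated start (RefSeq Release 6 genome, dm6 coordinates), 5′ to 3′ on the strand of the gene. Capitals mark the DRE (TATCGATA) in the first 3 and Ohler1 (GGTCACACT) in the fourth, both searched on either strand. No motif spelled out here contains another. The DRE reads alike on both strands and is the site of the factor DREF. The window of mtDNA-helicase is chr2L:9893397-9893696 on the minus strand, that of pasi1 is chr3R:17794825-17795124 on the plus strand, that of DCTN6-p27 is chr2L:19132073-19132372 on the plus strand and that of Prosalpha2 is chr3R:12431071-12431370 on the plus strand.
mtDNA-helicase: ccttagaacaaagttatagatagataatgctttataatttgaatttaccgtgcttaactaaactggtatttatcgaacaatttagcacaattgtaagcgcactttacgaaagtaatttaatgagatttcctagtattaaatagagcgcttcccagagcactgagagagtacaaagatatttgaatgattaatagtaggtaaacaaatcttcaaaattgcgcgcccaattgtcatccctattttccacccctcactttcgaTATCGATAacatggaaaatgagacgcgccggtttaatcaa
pasi1: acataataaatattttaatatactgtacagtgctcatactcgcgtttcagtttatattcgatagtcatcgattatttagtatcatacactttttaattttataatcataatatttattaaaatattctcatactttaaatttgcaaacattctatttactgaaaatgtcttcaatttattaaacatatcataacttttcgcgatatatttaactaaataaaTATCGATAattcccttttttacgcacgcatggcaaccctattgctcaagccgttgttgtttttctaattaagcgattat
DCTN6-p27: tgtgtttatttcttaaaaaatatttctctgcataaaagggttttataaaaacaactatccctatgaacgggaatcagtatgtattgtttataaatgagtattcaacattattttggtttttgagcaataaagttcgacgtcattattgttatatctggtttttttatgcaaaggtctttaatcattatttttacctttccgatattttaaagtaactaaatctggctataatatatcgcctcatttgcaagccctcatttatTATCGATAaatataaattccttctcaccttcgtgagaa
Prosalpha2: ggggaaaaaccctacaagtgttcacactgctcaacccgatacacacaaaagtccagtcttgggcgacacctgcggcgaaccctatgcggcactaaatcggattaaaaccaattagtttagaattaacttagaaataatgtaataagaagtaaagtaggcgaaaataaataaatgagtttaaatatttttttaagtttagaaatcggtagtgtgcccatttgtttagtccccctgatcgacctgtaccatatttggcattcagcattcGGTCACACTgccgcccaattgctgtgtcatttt
The DRE lay 11 to 18 nt after the annotated start in mtDNA-helicase, 13 to 20 nt after it in DCTN6-p27 and 29 to 22 nt before it in pasi1, and Ohler1 lay 18 to 26 nt after the start in Prosalpha2.

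Over all members the DRE was found in 24 of 158 promoters (15.2%), against 15.2% of the promoters of genes with a mean count of at least 100 and a Ctrl density of at least 2 times background, and 7.9% of all 16821 promoters read. Ohler1 was found in 12 members (7.6%), against 10.6% of those occupied genes and 5.1% of all promoters. A DRE, Ohler1, Ohler6, Ohler7 or E-box (CAGCTG) motif was found in 84 members (53.2%), against 49.3% of occupied genes and 32.2% of all promoters. The motifs of focused promoters, the box TATAAA, the initiator TCAGT or the downstream element CGGACG, were found in 114 members (72.2%), against 72.6% of occupied genes and 75.0% of all promoters. These shares lay within 4 percentage points of those of occupied genes. The site of Zelda, searched as CAGGTAG, was found in 3 members (1.9%), against 2.5% of occupied genes and 1.6% of all promoters. The site of the Trl protein, searched as GAGAGAG, was found in 3 members (1.9%), against 4.4% of occupied genes and 5.7% of all promoters. The median log2 fold change was −1.18 in the 84 members with any of the motifs of dispersed promoters and −1.22 in the other 74.

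The fall was graded, and the limit of 0.5 cut through a continuous distribution. The ratio had a median of 0.463, with 19 members at 0.4 or less and 93 members between 0.45 and 0.5, and 174 further genes with a mean count of at least 100 lay between 0.5 and 0.55. The 3 members nearest to the limit were wdn, COX5A and CG9784. COX5A, a subunit of cytochrome c oxidase, had 36.4 and 32.1 CPM in Ctrl and 14.6 and 16 CPM in DomKD. The 3 genes just outside were CkIIalpha-i1, Acbp1 and CG14174, of which CkIIalpha-i1 had 49.2 and 48.6 CPM in Ctrl and 18.3 and 24.3 CPM in DomKD. The values ran on across the limit without a gap.

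Relative to the Ctrl mean, the median member kept 0.433 of its CPM in DomKD replicate 1 (range 0.23 to 0.495) and 0.412 in DomKD replicate 2 (range 0.188 to 0.497). The median occupied gene kept 0.743 and 0.724. In the edgeR likelihood ratio test with trimmed mean of M values (TMM) scaling, the members had a median log2 fold change of −1.19 (range −2.0 to −1.0, model SE 0.20 to 0.27), beside 0.07 over all 16513 genes tested and −0.40 over the 6421 occupied genes with a mean count of at least 100. All 158 members were called lower at an adjusted p under 0.05, beside 12.7% of all genes tested, which the choice of members fixed. Both DomKD libraries lay below both Ctrl libraries in 34.5% of all genes tested, in 47.9% of the genes with a mean count of at least 100 and in 73.6% of the occupied ones. The members were thus the lower end of a shift that most occupied genes shared. The count of members depended on scaling: with TMM factors in the CPM 83 genes met the rule, 73 of them members, and with DESeq2 size factors 77 genes, 66 of them members. The 24 members with the lowest ratio met it under both.

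The members had high but not extreme Pol II density in Ctrl. Their Ctrl density had a median of 6.44 times background (quartiles 5.27 and 8.35, range 2.87 to 23.04), against 4.39 in occupied genes and 2.64 in all genes with a mean count of at least 100. None of the 4282 genes below 2 times background was a member, and the share of members rose to 6.42% between 6 and 8 times background. Above 12 times background it was lower again, at 1.56% between 12 and 16 times and 0.93% at 16 times or more. The 3 members at 16 times or more were CG42846, CG8319 and lncRNA:CR42862. CG8319 was at 17.43 and 19.98 times background in Ctrl and at 8.58 and 3.36 times in DomKD, with DomKD replicate 2 below replicate 1. asRNA:CR46081, at 15.26 times background, had 41.3 and 42.4 CPM in Ctrl and 20.2 and 16.5 CPM in DomKD. The member with the lowest Ctrl density was CG32817 at 2.87 times background, with 14.9 and 13.2 CPM in Ctrl and 6.43 and 5.84 CPM in DomKD. The upper end of the density range thus held few members.

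The background bounded which genes could be members. A gene that lost all signal and kept only the background would fall to 0.5 of its Ctrl CPM only from a Ctrl density of 1.98 times background in DomKD replicate 1 and of 3.16 times in DomKD replicate 2. Genes below those densities could hardly meet the rule. Above the background, the median member kept 31.8% of its Ctrl density in DomKD replicate 1 and 18.5% in DomKD replicate 2, and occupied genes kept 65.6% and 42.3%. Less than 20% was left in 11 members in DomKD replicate 1 and in 93 members in DomKD replicate 2. CG34453 was at 1.77 times background in DomKD replicate 1 and at 0.65 times in DomKD replicate 2, down from 4.52 and 5.24 times in Ctrl. A density of at least 2 times background in both DomKD libraries was kept by 39 members. With the background subtracted in each library before the rule was applied, 2105 genes met it, all 158 members among them.

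**Figure D2:**
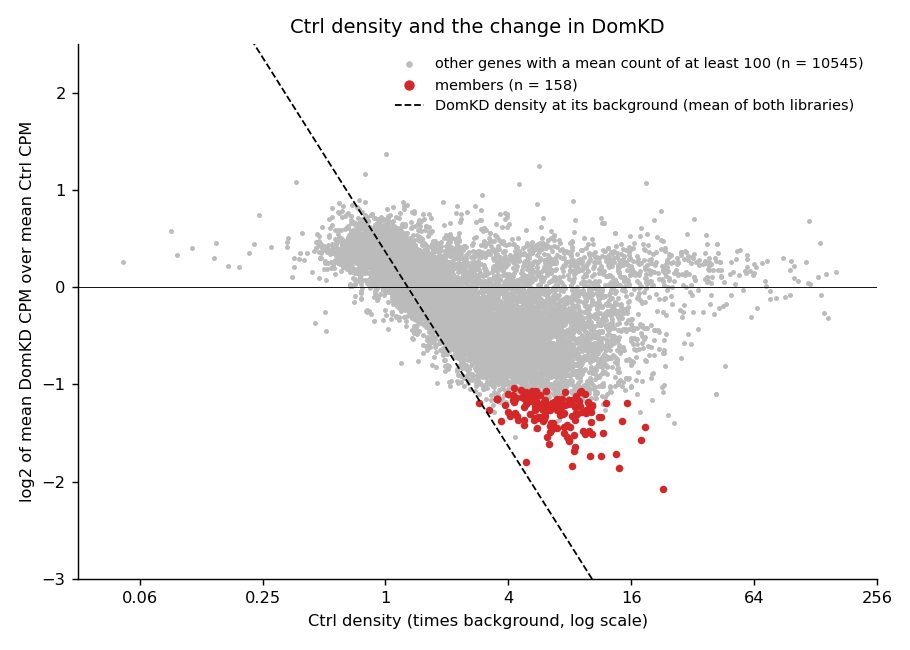
Ctrl density in multiples of the background (log scale) against the log2 ratio of mean DomKD to mean Ctrl CPM for the 10703 genes with a mean count of at least 100, members in red and the other 10545 genes in grey. The dashed line is where a gene would lie if its DomKD density equalled the mean floor of both DomKD libraries. The members lie between 2.87 and 23.04 times background along the lower edge of the cloud.

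The members were short. Their spans had a median of 1266 nt (quartiles 906 and 2022, range 452 to 10270), against 2242 nt in occupied genes and 3070 nt in all genes with a mean count of at least 100. Between 500 and 1000 nt 50 of 695 genes were members (7.19%), and at 8000 nt or more 2 of 2359 (0.08%). Under 500 nt 2 of 120 genes were members. Among genes of like density, at 4 to 12 times background, the share was 2.13% under 500 nt (1 of 47), 10.11% between 500 and 1000 nt, 5.84% between 1000 and 2000 nt, 2.86% between 2000 and 4000 nt and 0.72% at 8000 nt or more. The members at 8000 nt or more were MEP-1, whose protein works with the Mi-2 remodeler, and CG42245, which shares its span. MEP-1 covered 10270 nt and had 273 and 297 CPM in Ctrl and 119 and 123 CPM in DomKD. Other long members were row at 7108 nt, lncRNA:CR42862 at 6859 nt and Su(var)2-10 at 5879 nt, the last of which encodes a SUMO ligase of the PIAS family. The part of span length in the fold changes was not tested.

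**Figure D3:**
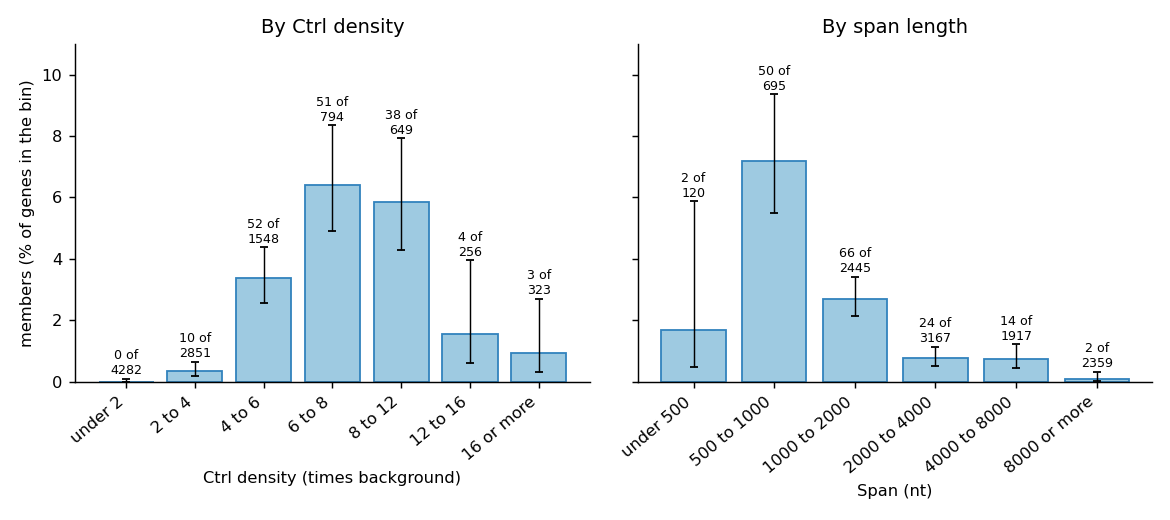
Share of members in percent of the genes with a mean count of at least 100, by Ctrl density in multiples of the background (left) and by span length in nt (right), with members and genes counted above each bar and 95% Wilson intervals that cover counting error only. The share peaks at 6.42% between 6 and 8 times background and at 7.19% between 500 and 1000 nt.

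By function, the members were spread over many groups of genes, and 154 of the 158 were protein coding. The gene lists were chosen with earlier results of these data known. Of the members, 42 lay on at least 1 of the lists and 116 on none, and 60 had only a CG number as a symbol (38%, against 33.0% of the genes with a mean count of at least 100). The proteasome list gave the highest share, with 4 of 36 genes (11.11%, against 1.48% overall). Both DomKD libraries lay below both Ctrl libraries in 33 of its 36 genes, beside 73.6% of occupied genes. The list had a median span of 1454 nt at 6.22 times background. Among all genes of 1000 to 2000 nt at 4 to 12 times background, 5.84% were members and 87.7% had both DomKD libraries below both Ctrl libraries. With TMM factors or DESeq2 size factors in the CPM, 3 of the 4 proteasome members still met the rule. Besides Sem1 these members were subunits of the 20S core. Prosalpha2 had 40.9 and 46.2 CPM in Ctrl and 15.8 and 13.2 CPM in DomKD. Prosbeta3 had 36.1 and 39 CPM in Ctrl and 12.6 and 14.4 CPM in DomKD. Prosbeta4 had 23.9 and 24.1 CPM in Ctrl and 10.9 and 9.19 CPM in DomKD. All 13 genes of the 20S core that were tested had both DomKD libraries below both Ctrl libraries, with log2 fold changes from −1.53 for Prosalpha2 to −0.11 for Prosalpha6 and a median of −0.76. The core was singled out after its values were seen.

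The mitochondrial ribosomal protein list had the next highest share. Of its 60 genes 5 were members (8.33%), mRpL9, mRpL27, mRpL28, mRpL36 and mRpL44. Both DomKD libraries lay below both Ctrl libraries in 51 of the 60 (beside 73.6% of occupied genes), with a median log2 fold change of −0.65. These genes had a median span of 986 nt at 6.93 times background. Among all genes of 500 to 1000 nt at 4 to 12 times background, 10.11% were members. In 81.8% of that class both DomKD libraries lay below both Ctrl libraries, so the list did not stand out from it. Of the 5 mitochondrial ribosomal members, 1 met the rule with TMM factors and 1 with DESeq2 size factors. mRpL36 had 28 and 28.9 CPM in Ctrl and 11.5 and 8.65 CPM in DomKD. Of 69 oxidative phosphorylation genes, with a median span of 1226 nt at 5.22 times background, 4 were members (5.80%). Among all genes of 1000 to 2000 nt at 4 to 12 times background the share was 5.84%. The 4 members were ND-23 and ND-B14.5B of complex I, UQCR-Q of complex III and COX5A of complex IV. Under either other scaling 2 of the 4 met the rule. UQCR-Q had 38.5 and 43 CPM in Ctrl and 15.9 and 15.6 CPM in DomKD. Scox, which delivers copper to cytochrome c oxidase, had 24.3 and 25.7 CPM in Ctrl and 10.9 and 9.3 CPM in DomKD. Cytosolic translation gave 2 of 87 cytoplasmic ribosomal protein genes (2.3%, RpS2 and RpS19b), 0 of 48 translation factor genes and 0 of 33 aminoacyl-tRNA synthetase genes. Overall 1.48% of genes with a mean count of at least 100 were members, and at that share lists of these sizes could hold few or none. The ribosomal protein genes had a median Ctrl density of 8.4 times background and a median log2 fold change of −0.36.

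Genes of DNA replication, repair and mitosis were among the members. Of 39 replication genes 3 were members (7.69%), of which 0 met the rule with TMM factors or with DESeq2 size factors. Orc6, a subunit of the origin recognition complex, had 30.5 and 33 CPM in Ctrl and 13.7 and 12.8 CPM in DomKD. RPA3, the small subunit of the single-strand binding protein RPA, had 28.4 and 32.7 CPM in Ctrl and 13.8 and 11.1 CPM in DomKD. RfC38, a subunit of the clamp loader, had 43.3 and 40.5 CPM in Ctrl and 18.1 and 19 CPM in DomKD. The log2 fold change was −1.21 for Orc6 and between −0.59 and 0.18 for the other 5 origin recognition genes. Over the 4 clamp loader genes tested it ran from −1.13 for RfC38 to −0.2, with a median of −0.63. Of the 2 RPA genes tested, RPA3 was at −1.23 and RPA2 at −0.59. The rule favoured larger falls in members than in other subunits, so these differences are a description and carry no test. The repair list gave 2 of 44 genes (4.55%): phr, a photolyase, and agt, which removes alkyl groups from DNA. The mitosis list gave 2 of 79 genes (2.53%): Nuf2, a kinetochore protein of the Ndc80 complex, and mr, a subunit of the anaphase promoting complex. Of all genes with a mean count of at least 100, 1.48% were members, and of the 6421 occupied genes 158 were. Under either other scaling both repair genes met the rule, and 0 of the 2 mitosis genes did. Nuf2 had 57.1 and 54.6 CPM in Ctrl and 24.4 and 23.4 CPM in DomKD. Outside the lists, Sas-6, which builds the cartwheel of the centriole, had 44.1 and 51.3 CPM in Ctrl and 18.5 and 17 CPM in DomKD, and Map60, a centrosomal protein, had 60 and 60 CPM in Ctrl and 23.9 and 24.4 CPM in DomKD.

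Chromatin and transcription genes included subunits of the Tip60 complex, to which Domino belongs. Tip60, its histone acetyltransferase, had 75.4 and 69.5 CPM in Ctrl and 30.8 and 27.1 CPM in DomKD. MrgBP, another subunit, had 21.6 and 24.6 CPM in Ctrl and 10.6 and 8.87 CPM in DomKD. Of 16 genes of the complex, singled out after their values were seen, 13 had both DomKD libraries below both Ctrl libraries, with a median log2 fold change of −0.35 and −0.40 for dom. Over all occupied genes the share was 73.6% and the median −0.40, so that the complex as a whole lay near them. The 93 chromatin regulators held 4 members (4.30%), Tip60, MEP-1, Su(var)2-10 and Bap60, the last a subunit of the Brahma remodeler. Of these 4, 2 met the rule with TMM factors and 0 with DESeq2 size factors. The list had a median span of 3958 nt at 4.89 times background. Among all genes of 2000 to 4000 nt at 4 to 12 times background 2.86% were members, and overall 1.48%. msl-1, a scaffold of the dosage compensation complex, had 120 and 129 CPM in Ctrl and 55.9 and 52.5 CPM in DomKD. The 91 genes of the transcription machinery held 2 members (2.20%), Taf11 of TFIID and Polr1C, a subunit shared by RNA polymerases I and III, and both met the rule under either other scaling. Polr1C had 43.2 and 40.8 CPM in Ctrl and 15.6 and 15.9 CPM in DomKD.

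RNA processing genes among the members were U2A of the U2 snRNP, LSm1 of the decapping machinery, tsu of the exon junction complex, Cbp20 of the nuclear cap-binding complex, loqs, a partner of Dicer proteins, and Trm1 and Ctu1, which modify tRNAs. The splicing list, which takes in LSm proteins by symbol, held 2 members of 45 genes (4.44%, against 1.48% overall). The list of rRNA and tRNA processing held 3 of 55 (5.45%). Under either other scaling 0 of the 2 splicing members and 2 of the 3 others met the rule. tsu was among the densest members, at 14.49 times background in Ctrl, and had 48.4 and 52 CPM in Ctrl and 21.8 and 16.9 CPM in DomKD. Traffic and degradation genes were beta'COP of the COPI coat, AP-2sigma of the clathrin adaptor, Arl5, Golgin84, Atg12, a ubiquitin-like autophagy protein, Uev1A, a ubiquitin-conjugating enzyme variant, and Pex13 and Pex16 of peroxisome assembly. Pex16 had 62.2 and 49.6 CPM in Ctrl and 19.6 and 19.3 CPM in DomKD. The vesicle traffic list held 3 members of 168 genes (1.79%, near the 1.48% overall). Of these 3, 1 met the rule with TMM factors and 0 with DESeq2 size factors. The ubiquitin list held 2 of 78 (2.56%), of which 1 met it under either other scaling.

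None of the 64 early zygotic patterning and cellularisation genes was a member, beside 1.48% of all genes with a mean count of at least 100. At that share a list of this size could hold none. Both DomKD libraries lay above both Ctrl libraries in 36 of them (against 15.7% of the genes with a mean count of at least 100) and below in 0. Their median log2 fold change was 0.32 with TMM factors over all genes and −0.02 with TMM factors taken from this list itself, which sets it near 0. Scaling by this list shifted the median over all genes by −0.27 and that of the members to −1.50. Of members with a known developmental role, usp, the nuclear receptor partner of the ecdysone receptor, had 74.5 and 77.3 CPM in Ctrl and 34.9 and 34.6 CPM in DomKD. Its ratio was 0.468 over this span and 0.588 over its other span of 2515 nt. With TMM factors or DESeq2 size factors in the CPM usp did not meet the rule. Of 652 noncoding RNA genes 4 were members (0.61%, against 1.48% overall), and each of these 4 overlapped another gene.

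Many members lay side by side. The 158 members had 152 distinct spans, since MEP-1 and CG42245, Prx5 and CG7215, and 5 pre-mod(mdg4) genes share a span and all its reads. With members joined over gaps of at most 1000 nt they formed 122 loci, of which 24 held at least 2 distinct spans and 56 members in all. On chromosome arm 2L, Fkbp59, CG4537 and mtDNA-helicase lay in a row and Bka and RpS2 followed within 1841 nt. Among them lay CG34183 and Uhg2, which missed the rule at log2 fold changes of −0.84 and −1.04. On 3L, lncRNA:CR42862 and the 3 small genes CG42846, CG34454 and CG34453 formed a block of 9246 nt. lncRNA:CR42862 had the most reads of any member, with 540 and 548 CPM in Ctrl and 222 and 144 CPM in DomKD. On 3R, Sas-6 and CG15525 were followed by CG34298, Tace and Nph. Also on 2L, beta'COP, loqs, asRNA:CR44599 and Ing5 lay within 8411 nt, and asRNA:CR44599 lies inside loqs on the other strand, so that its reads also count for loqs.

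**Figure D4:**
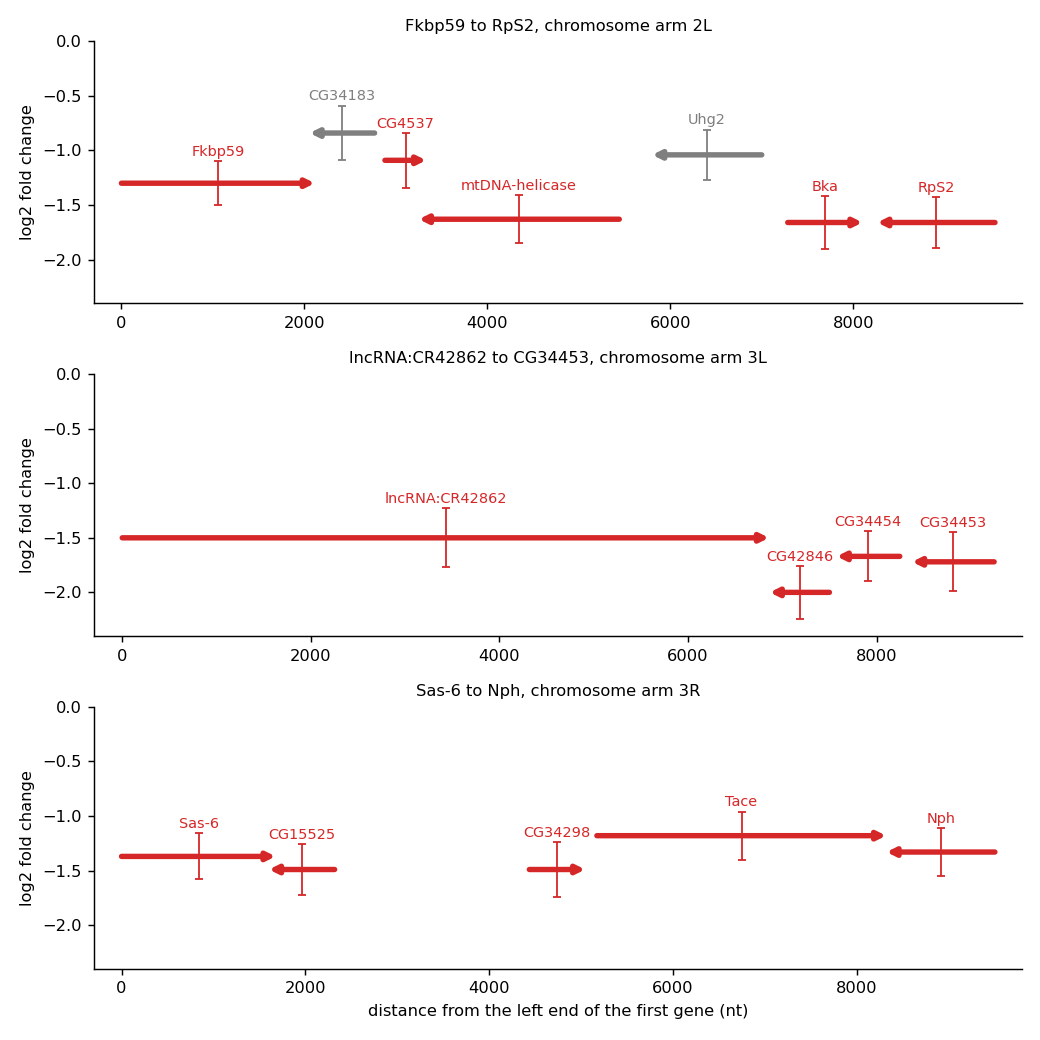
Log2 fold change of DomKD over Ctrl (vertical axis, bars are the edgeR model SE) against the distance in nt from the left end of the first gene at 3 loci, with each arrow spanning a gene in its direction of transcription, members in red and other genes in grey. All members shown lie at or below −1.09, down to −2.0 for CG42846, and CG34183 and Uhg2 lie at −0.84 and −1.04.

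Adjacent members most often faced each other with their 3′ ends. Of 28 adjacent pairs of members 17 were tail to tail (60.7%), 2 were head to head (7.1%) and 9 lay on the same strand (32.1%). Of 3723 adjacent pairs of occupied genes within the same distance, 38.4% were tail to tail, 32.6% head to head and 29.0% on the same strand. In 9 of the 17 tail-to-tail pairs of members (52.9%) the ends overlapped, so that reads in the overlap counted for both genes. The share was much the same, 55.6%, in the 1430 tail-to-tail pairs of occupied genes. Sem1 and Nuf2 overlapped by 37 nt, CG4537 and mtDNA-helicase by 82 nt, Sas-6 and CG15525 by 74 nt and Pitslre and Pex16 by 166 nt. Arpc3A, a subunit of the actin-nucleating Arp2/3 complex, and ND-23 ended 26 nt apart. Arpc3A had 35.8 and 37.6 CPM in Ctrl and 16.8 and 15.6 CPM in DomKD, and ND-23 had 31.6 and 32.9 CPM in Ctrl and 13.5 and 14.6 CPM in DomKD. Cbp20 ended 2 nt from Prx5 and had 25.3 and 33.4 CPM in Ctrl and 11 and 7.79 CPM in DomKD. The head-to-head pairs were Scox with Polr1C and glo with COX5A. Taking every annotated gene as a possible neighbour, 79.1% of the 158 members had the end of an opposite-strand gene within 500 nt of their own end, against 54.7% of occupied genes and 45.7% of all genes with a mean count of at least 100. Among genes shorter than 2000 nt at 4 to 12 times background the share was 62.8%. In that same class 87 of 981 genes with such a neighbour were members (8.87%), against 22 of 582 without one (3.78%). Among the 53 members that overlapped no other gene the share was 66.0%. The orientation was looked at after the values were seen.

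At the other end, 79 members (50.0%) had the start of an opposite-strand gene 0 to 500 nt upstream, against 41.2% of occupied genes and 31.9% of all genes with a mean count of at least 100. Within 250 nt the share was 22.8%, against 22.0% of occupied genes. Of the 79, 4 had a divergent partner that was itself a member. Of all genes with a mean count of at least 100, 1.48% were members, so 4 was not a low count. Of 68 tested partners that were not members, 59 had both DomKD libraries below both Ctrl libraries, with a median log2 fold change of −0.63. The nearest genes that were not members also lay low: of 155 within 1000 nt, 80.6% had both DomKD libraries below both Ctrl libraries, with a median log2 fold change of −0.64. For the 129 of these that were occupied the values were 92.2% and −0.69, against 72.0% and −0.39 in all 7091 occupied genes tested. That comparison was not matched for span or density. Among all genes at 4 to 12 times background the values were 81.8% and −0.62 at 500 to 1000 nt and 87.7% and −0.57 at 1000 to 2000 nt. Neighbours within 1000 nt can share chromatin fragments with members, and the part of this in their values was not tested. Not every neighbour fell, since toc, 166 nt downstream of the complex I gene ND-B14.5B, had 783 and 771 CPM in Ctrl and 1204 and 1075 CPM in DomKD, in a span of 76442 nt.

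**Figure D5:**
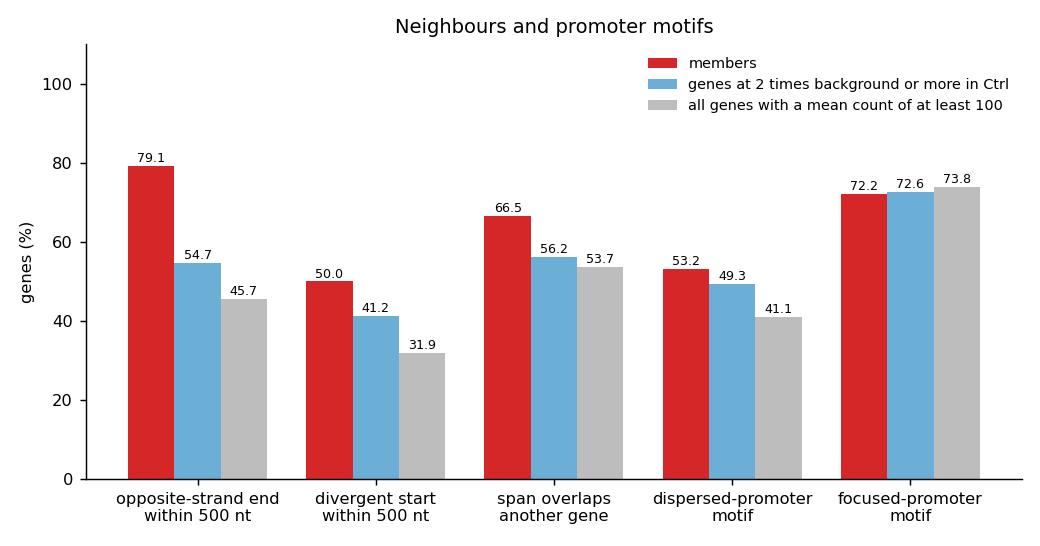
Percent of genes with each neighbour or promoter feature for the 158 members (red), for genes at 2 times background or more in Ctrl (blue) and for all genes with a mean count of at least 100 (grey). The end of an opposite-strand gene within 500 nt is found in 79.1% of members against 54.7% and 45.7%, whereas focused-promoter motifs are found in 72.2%, 72.6% and 73.8%.

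Because reads were counted without strand and for every transcript they overlapped, membership of overlapping genes was not independent, and 66.5% of the 158 members overlapped another gene, against 56.2% of occupied genes. Restricted to genes that overlap no other gene, the rule left 53 members. Another annotated span with a mean count of at least 50 existed for 50 members, giving 72 further spans, of which 59 were also at a ratio of 0.5 or less. The others differed from the main span. CG7215 had a ratio of 0.439 over the span of 1832 nt that it shares with Prx5, an antioxidant enzyme, and 0.788 over its own span of 694 nt, while Prx5 had 0.357 over its own span of 1057 nt. CG3788 likewise had 0.488 over 2043 nt and 0.797 over 1489 nt.

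By chromosome arm, 63 members lay on 3R, 31 on 2R, 26 on 2L, 21 on 3L and 17 on X. Chromosome 4 had 89 genes with a mean count of at least 100, 41 of them occupied, and 0 members. Over all genes with that mean count 1.48% were members, so a set this small could hold none. The share was 2.35% on 3R, against 1.41% on 2R, 1.30% on 2L, 1.03% on X and 1.02% on 3L. Of occupied genes, 3.89% on 3R were members and between 1.69% and 2.27% on the other large arms. The median log2 fold change of all genes with a mean count of at least 100 was −0.14 on 3R, −0.18 on X, −0.11 on 3L and −0.10 on 2L and 2R. The 5 pre-mod(mdg4) genes on 3R count as 5 members although they share 1 span.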

How the data were processed

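Rpb3 ChIP-seq reads of Ctrl and DomKD embryos were trimmed, aligned to dm6 and de-duplicated by the authors, who deposited whole-number counts of reads over the full span of each Ensembl transcript, made with featureCounts without strand and with a read counted for every transcript it overlapped. The table of 4 libraries was used, and 24 other samples of the series were not analysed here. Of 34043 transcripts of at least 125 nt, 33792 were matched to genes through Ensembl release 115 (release 96 was counted), and 251 were left out. Each gene was represented by its transcript with the highest mean count, and CPM were taken over the sum of these counts (between 8326467 and 12022743 per library). DomKD was compared with Ctrl in edgeR 4.0.16 (likelihood ratio test, TMM factors) with Benjamini-Hochberg adjustment at 0.05, after genes with a read sum of 10 or less were dropped. The edgeR test and the rule for members were checked on simulated counts. The edgeR quasi-likelihood test and DESeq2 1.42.0 were alternatives. The study scaled by its Zelda targets, which was not used here. With 2 biological replicates per group, p-values rest on the spread between these libraries.

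The members and gene lists were chosen with earlier results of these data known. Genes named in the text were the members with the lowest ratio, the highest Ctrl density and the most reads, members on a list or beside another member, the 3 genes on either side of the limit, dom, and genes that overlap members or share their promoters. Other members were named for a known role, after their values were seen. Promoter sequences came from RefSeq (Release 6 assembly), in which all 158 members had the same span and strand.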

Additional observations from a re-analysis of the deposited data

How the results depend on the processing

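The number of members depended on the background, scaling, the limit, overlap and single libraries. The main count of 158 became 83 with TMM factors, 77 with DESeq2 size factors and 573 with TMM factors from the early zygotic list. It was 19 at a limit of 0.4, 636 at 0.6, 53 without overlapping genes and 2105 with the background subtracted, and between 202 and 456 with 1 library left out. The mirrored count of 3 became 0 with the early zygotic factors, 0 and 7 at the limits of 0.4 and 0.6, 5 at a mean count of at least 50, 21 with no such minimum, 0 without overlapping genes and 76 with the background subtracted, and between 3 and 14 with 1 library left out. Genes lower in DomKD numbered 2092 with edgeR and 1106 with DESeq2. Genes higher numbered 406, against 212 with the quasi-likelihood test, 145 with library size only, 7 with the early zygotic factors and 49 with DESeq2. They numbered 1464 when only genes with a mean count of at least 100 were fitted, with TMM factors and dispersions estimated anew from these genes. The median log2 fold change of the members, −1.19, was −1.24 with library size only, −1.50 with the early zygotic factors and between −1.38 and −1.04 with 1 library left out, the ends being without DomKD replicate 1 and 2. The share with a divergent start was 22.8% at 250 nt, that with a dispersed-promoter motif 22.8% for DRE and Ohler1 only, and that with an opposite-strand end 66.0% for members that overlap no gene. The causes were not tested. Of 78 alternatives 43 left the value close to the main one and 35 moved it. A reversal could be recorded only for the median log2 fold change of the members. The rule fixed the direction of that value, so the absence of reversals carries no information.

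Same-numbered libraries had deviations correlated at −0.133 over all genes tested and at −0.233 over genes with a mean count of at least 100. With only 1 difference between replicates per group, this cannot decide whether the replicate numbers pair the samples. With the replicate block 1643 genes were lower and 215 higher, and the median of the members was −1.20. With the numbers crossed, an alternative chosen after seeing the data like those on shared spans and opposite-strand ends, 2681 genes were lower and 732 higher.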
